A study of Dipsacus asperoides with 9 samples.

Results

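Roots of Dipsacus asperoides, a medicinal herb whose root accumulates triterpenoid saponins, were compared between plants grown for 7 months (M7, 3 libraries) and seedlings with a single leaf (L1, 3 libraries). Members were the unigenes, that is the genes built from the reads without a genome, that reached 1 FPKM in 3 or more of these 6 libraries, after removal of those whose best database match was to Beta, Chenopodium, Spinacia, Quercus suber or Hordeum. They numbered 20202 of the 65535 unigenes in the table, and 14574 of them carried a description from the NR protein database. All plants were labelled wild type, all libraries came from whole roots, and each library was labelled as a separate biological replicate. The methods state no growth conditions apart for L1 and M7, and stage, age and any difference in conditions at sampling cannot be told apart. FPKM is a level per kilobase of transcript scaled to the reads of its library, and log2 fold changes were taken on log2(FPKM + 1), which understates the change of unigenes with low values. Fold changes are given with their standard error after the ± sign.

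A young seedling root is mostly tip and primary tissue. The tip divides, the zone behind it elongates, root hairs and the epidermis take up nitrate, ammonium and phosphate, and the endodermis lays down the Casparian strip that controls what reaches the xylem. An older taproot adds xylem and phloem from a vascular cambium, replaces the outer layers with a suberised periderm, and stores carbohydrate and specialised metabolites. Unigenes were therefore grouped by function from their NR descriptions into 52 lists, which held 3174 of the unigenes kept, and some unigenes were in more than 1 list.

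In this text a unigene rose or fell in M7 when its adjusted p from limma was under 0.05 and its log2 fold change was over 1 in size. It was a DEG when its log2 fold change was over 2 in size and the higher of the stage means was over 30 FPKM. Of the 20202 unigenes kept, 2589 (12.8%) rose and 8060 (39.9%) fell, and 461 (2.28%) were DEGs that rose and 1120 (5.54%) were DEGs that fell. Among the 14574 with a description, which are the background for every list below, 1430 (9.81%) rose and 6159 (42.3%) fell, and 353 (2.42%) and 1015 (6.96%) were rising and falling DEGs. The split into rises and falls depended on the scale. Median ratio rescaling gave 3843 rises and 7058 falls, while quantile normalization gave 4995 rises and 4038 falls. The median log2 fold change of all unigenes was -0.82 as deposited, -0.42 after median ratio rescaling and 0.10 after quantile normalization. That of described unigenes was -0.96, -0.54 and -0.05 in the same order, and the medians of lists are to be read against these 3 values.

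The libraries differed in breadth. Unigenes at 1 FPKM or more numbered 13430 to 18794 in M7 and 26048 to 28468 in L1, and the 100 highest unigenes held 34.9% to 48.1% of the summed FPKM in M7 and 25.3% to 34.2% in L1. Replicate 1 of M7 and replicate 3 of L1 stood at the concentrated end of their stages. Log2 levels correlated between libraries at 0.871 to 0.929 within M7, 0.878 to 0.961 within L1 and 0.470 to 0.646 across the stages, a description over unigenes and not a test. Unigenes of the removed match species reached 1 FPKM in 640 to 728 cases per M7 library and in 3782 to 4459 cases per L1 library, and 84.9% of those that passed the filter were below 0.1 FPKM in each M7 library, against 13.7% of the unigenes kept and 4.50% of those matched to Camellia or Actinidia. A further 52 unigenes kept had matches in other Caryophyllales, such as Dianthus and Silene, and 49 of them lay under 0.1 FPKM in all M7 libraries. Whether such unigenes belong to the plant was not tested.

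**Figure D1:**
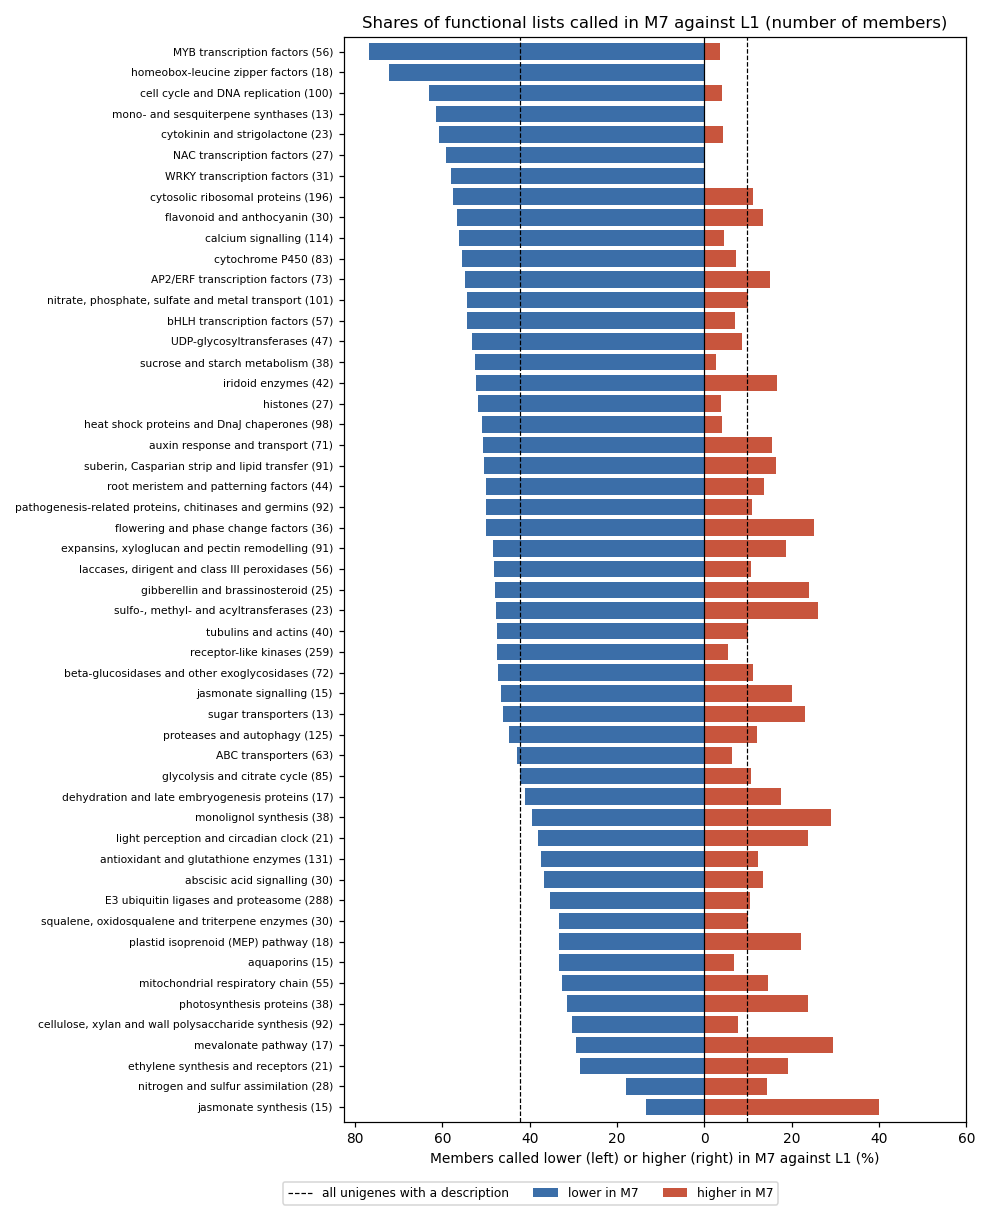
Shares of the members of the 52 lists that rose (right, red) or fell (left, blue) in M7 against L1, in percent, with the number of members in brackets and dashed lines at the shares of all unigenes with a description (42.3% and 9.81%). MYB factors had the highest falling share and jasmonate synthesis the highest rising share of these lists.

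Counts of markers of the parts of a root are to be read beside the 9.81% rising and 42.3% falling of described unigenes. The phloem and leaf lists given below lay near these shares. Of 10 kept markers of the root tip, endodermis and root hairs, 0 rose in limma, also at an unadjusted p under 0.05, and 8 fell, and 6 of the 15 such markers found before filtering were at 0 in all M7 libraries. SHORT-ROOT-like (TRINITY_DN21155_c0_g1), a factor that patterns the endodermis, had 0, 0.72 and 0.04 FPKM in M7, against 10.8, 12.7 and 16.7 FPKM in L1. Casparian strip membrane protein 1 (TRINITY_DN13496_c0_g3), a scaffold of the strip itself, was listed at 0 in all 3 M7 libraries, against 13.6, 11.7 and 10.2 FPKM in L1. Neither overlapped between the stages, and both were picked from the list after their values were seen. The summed FPKM of this marker list overlapped all the same, at 44.9 to 103 in M7 and 59.8 to 114 in L1. In the other lists, 4 of 5 xylem and secondary wall markers fell and 0 rose, by either p, with sums of 36.3 to 55.1 FPKM in M7 and 75.1 to 84.6 FPKM in L1, and 4 of 8 phloem markers fell and 1 rose, with sums of 99.0 to 119 FPKM in M7 and 213 to 288 FPKM in L1. Leaf and chloroplast markers, of which 23 were kept, gave sums of 1376 to 3276 FPKM in M7 and 181 to 224 FPKM in L1, although 9 of them fell and 3 rose, and 12 of the 36 found before filtering were at 0 in all M7 libraries. A single chlorophyll a-b binding protein (TRINITY_DN22710_c0_g1) held most of the M7 sums, with 2913, 1196 and 2148 FPKM in M7, against 12.6, 11.7 and 12.5 FPKM in L1. These are whole roots, in which fewer cells of a type and less RNA per cell cannot be told apart. The part of a changed tissue makeup in the results below was not tested.

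Transporters for mineral uptake moved in both directions within families. Of 101 transporters of nitrate, ammonium, phosphate, sulfate and metals, 10 rose and 55 fell (6 rose without replicate 2 of L1), with a median log2 fold change of -1.36. These shares were 9.90% and 54.5%, beside 9.81% and 42.3% of described unigenes. The summed FPKM was 1595 to 2088 FPKM in M7 and 2685 to 2926 FPKM in L1, without overlap. Phosphate transporter 1-3 (TRINITY_DN106554_c0_g1), of the family that takes up phosphate from soil, was listed at 0 in all 3 M7 libraries, against 75.5, 80.7 and 148 FPKM in L1. Ammonium transporter 3 member 1-like (TRINITY_DN37990_c0_g1) was likewise at 0 in all 3 M7 libraries, against 79.7, 78.7 and 74.6 FPKM in L1. A pair of other ammonium transporters moved the opposite way. Ammonium transporter 2-like (TRINITY_DN18682_c0_g1) had 268, 217 and 196 FPKM in M7, against 37.3, 32.2 and 17.6 FPKM in L1 (log2 fold change 2.98 ± 0.36, limma adjusted p = 0.000473), and ammonium transporter 1 member 1-like (TRINITY_DN23834_c0_g3), chosen after its values were seen, had 340.4, 258 and 166 FPKM in M7, against 64, 51.4 and 22.4 FPKM in L1 (log2 fold change 2.51). In the NRT1/PTR family of nitrate and peptide carriers, member 6.4 (TRINITY_DN18715_c0_g1) rose, with 24.6, 41.2 and 28.1 FPKM in M7, against 4.18, 3.03 and 0.78 FPKM in L1. Member 2.5 (TRINITY_DN1663_c0_g1), also chosen after its values were seen, fell, with 35.6, 40.7 and 62.1 FPKM in M7, against 196, 205 and 426 FPKM in L1. In all of these the stages were fully separated, which the naming rule required of those not chosen after their values were seen.

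Assimilation of the ions stood closer to the middle. Of 28 nitrogen and sulfur assimilation unigenes, 4 rose and 5 fell (2 rose without replicate 1 or 2 of L1, 2 fell without replicate 1 or 2 of L1), and their median of -0.57 changed sign after quantile normalization (0.056). Ferredoxin-nitrite reductase (TRINITY_DN13366_c0_g1), which reduces nitrite to ammonium in plastids, had 40.9, 52.03 and 28.1 FPKM in M7, against 7.42, 4.68 and 1.71 FPKM in L1 (log2 fold change 2.99 ± 0.50, limma adjusted p = 0.00193). Serine acetyltransferase (TRINITY_DN13938_c0_g1), which makes the precursor of cysteine, had 46.7, 58.1 and 55.7 FPKM in M7, against 10.8, 6.46 and 9.65 FPKM in L1 (log2 fold change 2.47 ± 0.32, limma adjusted p = 0.000614). Both were DEGs. Of 15 aquaporins 1 rose and 5 fell (0 rose without replicate 2 of L1, 2 rose without replicate 1 or 2 of M7, 3 fell without replicate 2 of L1), with 1 at an unadjusted limma p under 0.05 where the count was 0, and with a median of -0.12 that became 0.24 after median ratio rescaling and 0.22 after quantile normalization. Aquaporin NIP6-1 (TRINITY_DN15878_c0_g1), a boron channel in Arabidopsis and chosen here after its values were seen, had 0, 1.04 and 0.06 FPKM in M7, against 10.9, 11.6 and 15.9 FPKM in L1.

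Unigenes of the barrier layers split. In the list of suberin, Casparian strip and lipid transfer proteins 15 of 91 members rose and 46 fell (median log2 fold change -1.14). The summed FPKM was slightly higher in M7, at 1532 to 1747 FPKM in M7 and 1257 to 1519 FPKM in L1, without overlap. 3-ketoacyl-CoA synthase 4 (TRINITY_DN3739_c0_g2), of the enzymes that lengthen fatty acids for wax and suberin, had 128, 94.7 and 131 FPKM in M7, against 15.4, 15.6 and 10.2 FPKM in L1 (log2 fold change 3.02 ± 0.31, limma adjusted p = 0.000303). CASP-like protein 1E2 (TRINITY_DN17482_c0_g1), of the family related to the Casparian strip scaffold, had 54.7, 142 and 72.7 FPKM in M7, against 23.4, 24.5 and 5.79 FPKM in L1. Against these rises, an alcohol-forming fatty acyl-CoA reductase (TRINITY_DN113681_c0_g1), of the enzymes that make fatty alcohols, had 0.06, 0.29 and 0.51 FPKM in M7, against 70.1, 63.6 and 22.5 FPKM in L1 (log2 fold change -5.22 ± 0.50, limma adjusted p = 0.000263). Replicate 3 of L1 was the lowest of its stage for all 3 unigenes.

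Unigenes of dividing cells were lower in M7. Among 100 cell cycle and DNA replication unigenes 4 of 100 rose and 63 fell (median -1.86), also negative after median ratio rescaling (-1.34) and quantile normalization (-0.78). Summed FPKM was 680.1 to 914 FPKM in M7 and 2188 to 2451 FPKM in L1. MCM5 (TRINITY_DN1352_c0_g1), a subunit of the helicase that licenses replication origins, had 0.43, 2.51 and 0.8 FPKM in M7, against 80.2, 87.1 and 98.3 FPKM in L1 (log2 fold change -5.42 ± 0.41, limma adjusted p = 0.000254). The spindle checkpoint protein MAD2 (TRINITY_DN15136_c0_g1) had 0.82, 0.67 and 0.26 FPKM in M7, against 62.03, 62.5 and 84.8 FPKM in L1 (log2 fold change -5.48 ± 0.33, limma adjusted p = 0.000193). The naming rule, which gave both, takes only unigenes whose stages do not overlap. MAD2 lay under 1 FPKM in every M7 library and so passed the filter only through L1. In place of 4 cell cycle unigenes, 2 rose without replicate 2 or 3 of L1 or replicate 3 of M7.

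Histones, whose canonical forms are made during replication, had their own list, in which 1 of 27 rose and 14 fell (median -1.59), with 2 rises without replicate 3 of L1. Histone H2B (TRINITY_DN3088_c0_g3) had 18.4, 17.5 and 23.6 FPKM in M7, against 249, 264 and 245 FPKM in L1 (log2 fold change -3.62 ± 0.26, limma adjusted p = 0.000254), and histone H2AX (TRINITY_DN15859_c0_g1) had 14.4, 15.7 and 12.8 FPKM in M7, against 100.3, 118 and 224 FPKM in L1. Of 40 tubulins and actins 4 rose and 19 fell (1 rose without replicate 2 of L1 or replicate 3 of M7, 2 rose without replicate 1 of L1), while their summed FPKM was 8021 to 12493 FPKM in M7 and 4368 to 6221 FPKM in L1. The sum was thus higher in M7, while the median of -1.15 lay near the -0.96 of described unigenes. The sum followed a few members of high level such as an alpha tubulin (TRINITY_DN1295_c1_g1), a subunit of microtubules, with 1184, 1847 and 3514 FPKM in M7, against 262, 244 and 106 FPKM in L1 (log2 fold change 3.37 ± 0.51, limma adjusted p = 0.00127). Tubulin gamma-1 (TRINITY_DN3919_c0_g1), which seeds microtubules, had 1.40, 4.21 and 5.11 FPKM in M7, against 48.2, 44.96 and 65.02 FPKM in L1 (log2 fold change -3.64 ± 0.44, limma adjusted p = 0.000477). Of the 40 members, 15 lay under 0.1 FPKM in all M7 libraries, a share of 37.5% beside 10.5% of described unigenes.

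Wall loosening carried both large rises and large falls. In the list of expansins, xyloglucan and pectin remodelling enzymes 17 of 91 members rose and 44 fell (median log2 fold change -1.07) (10 rose without replicate 3 of L1, 11 rose without replicate 2 of L1), and the summed FPKM was 6925 to 9351 FPKM in M7 and 3699.9 to 4565 FPKM in L1. Expansin-like B1 (TRINITY_DN12908_c0_g1), of a family related to the expansins that loosen walls, had 43.6, 35.04 and 40.8 FPKM in M7, against 0.22, 0.3 and 0.08 FPKM in L1 (log2 fold change 5.09 ± 0.31, limma adjusted p = 0.0002). A pectinesterase inhibitor domain protein (TRINITY_DN37510_c0_g2), chosen after its values were seen because it gave a large part of the list's sum in M7, had 6669.9, 3890.5 and 4661 FPKM in M7, against 579, 644 and 546 FPKM in L1. An endoglucanase (TRINITY_DN1743_c1_g1), which cuts wall glucans, had 33.3, 2.76 and 2.17 FPKM in M7, against 669, 657 and 606 FPKM in L1 (log2 fold change -6.44 ± 0.88, limma adjusted p = 0.000786). A xyloglucan endotransglucosylase (TRINITY_DN3293_c1_g1), which rejoins xyloglucan chains, had 6.41, 17.2 and 17.8 FPKM in M7, against 437, 375 and 232 FPKM in L1. Each of the 4 had libraries that did not overlap, which the naming rule required of all but the inhibitor domain protein. The endoglucanase was highest among M7 libraries in replicate 1.

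Synthesis of wall polysaccharides moved less: 7 of 92 rose and 28 fell (median -0.66) (3 rose without replicate 2 of L1 or replicate 2 of M7, 4 rose without replicate 3 of L1), and the median became 0.14 after quantile normalization. Cellulose synthase interactive 3 (TRINITY_DN1152_c1_g2), of the proteins that tie cellulose synthase to microtubules, had 1.02, 3.79 and 2.34 FPKM in M7, against 90.3, 91.2 and 33.3 FPKM in L1 (log2 fold change -4.37 ± 0.53, limma adjusted p = 0.000497). A galacturonosyltransferase-like 10 unigene (TRINITY_DN1523_c0_g2), of a family linked to pectin synthesis, had 13.4, 17.03 and 23.6 FPKM in M7, against 557, 506 and 193 FPKM in L1. A fasciclin-like arabinogalactan protein (TRINITY_DN33006_c0_g1), of a family of wall surface proteins, rose, with 54.9, 45.6 and 41.4 FPKM in M7, against 12.5, 11.2 and 2.42 FPKM in L1 (log2 fold change 2.54 ± 0.56, limma adjusted p = 0.00697).

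Monolignols are the building blocks of lignin, made from phenylalanine. In their synthesis list 11 of 38 rose and 15 fell (median -0.14), a median that was positive after median ratio rescaling (0.37) and quantile normalization (0.21), and without replicate 1 of M7 (0.23), and the summed FPKM was 3711 to 4158 FPKM in M7 and 1592 to 2039 FPKM in L1. Cinnamate 4-hydroxylase 3 (TRINITY_DN23067_c0_g1), the second enzyme from phenylalanine, had 953, 723 and 896 FPKM in M7, against 223, 218 and 286 FPKM in L1 (log2 fold change 1.82 ± 0.25, limma adjusted p = 0.000825). Cinnamyl alcohol dehydrogenase 3 (TRINITY_DN16_c0_g2), which makes the monolignols, had 312, 189.9 and 194 FPKM in M7, against 80.5, 85.3 and 115 FPKM in L1 (log2 fold change 1.28). They were picked with their values in view, as examples of abundant members. Hydroxycinnamoyl-CoA quinate transferase (TRINITY_DN13411_c0_g1), named by its size of change, had 133, 30.4 and 89.9 FPKM in M7, against 9.61, 10.03 and 8.09 FPKM in L1 (log2 fold change 2.83 ± 0.55, limma adjusted p = 0.00385). A 4-coumarate-CoA ligase-like unigene (TRINITY_DN10984_c0_g1) fell, with 0.69, 2.05 and 1.11 FPKM in M7, against 24.6, 26.4 and 52.3 FPKM in L1.

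Among laccases, dirigent proteins and class III peroxidases, which couple monolignols and other phenolics in the wall, 6 of 56 rose and 27 fell (median -1.20), and the summed FPKM was 2375 to 4674 FPKM in M7 and 12174 to 15889 FPKM in L1. The difference in that sum lay in a pair of peroxidases chosen after their values were seen, as the other 54 members summed to 1055 to 1696 FPKM in M7 and 1114 to 1175 FPKM in L1, which overlapped. Peroxidase 42 (TRINITY_DN18096_c1_g1) had 659, 1712 and 2158 FPKM in M7, against 6368, 7217 and 9429 FPKM in L1 (log2 fold change -2.49 ± 0.46, limma adjusted p = 0.00299), and peroxidase POD42 (TRINITY_DN23691_c0_g3) had 495, 1260.1 and 1461 FPKM in M7, against 4631, 4869.7 and 5346 FPKM in L1 (log2 fold change -2.35 ± 0.42, limma adjusted p = 0.00266). They may share reads as near copies, which the table cannot show. Laccase-4-like (TRINITY_DN18799_c1_g1), which in Arabidopsis acts in lignin of the stem and was also picked with its values in view, was listed at 0 in all 3 M7 libraries, against 15.8, 13.8 and 3.85 FPKM in L1. A dirigent family protein (TRINITY_DN273_c0_g1), of the proteins that guide phenolic coupling, had 46.5, 23.7 and 27.9 FPKM in M7, against 182, 203 and 240.1 FPKM in L1.

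**Figure D2:**
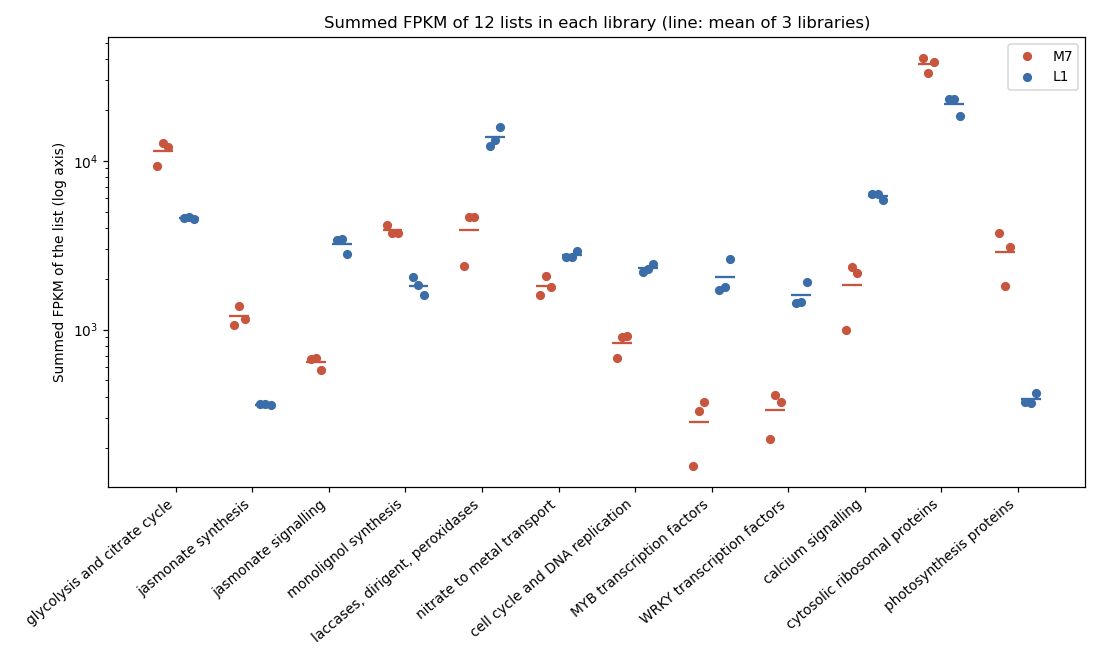
Summed FPKM of 12 lists in each M7 library (red, left of each pair) and each L1 library (blue), on a log axis, with lines at the means of 3 libraries. Sums lay higher in M7 for glycolysis, jasmonate synthesis, monolignol synthesis, ribosomal proteins and photosynthesis proteins. They lay lower in M7 for the other 7 lists. The stages did not overlap in any of the 12, which are a selection and do not stand for all lists. Among the lists not drawn, iridoid enzymes did not overlap either. Sums of the stages did overlap for squalene and triterpene enzymes, heat shock proteins, E3 ligases, aquaporins and ABC transporters, among others.

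In central carbon metabolism the largest rises were those of ethanolic fermentation, in which pyruvate decarboxylase and alcohol dehydrogenase turn pyruvate to ethanol and restore NAD when oxygen is short. Alcohol dehydrogenase 2-like (TRINITY_DN14161_c0_g1) had 1670.1, 4339 and 4431 FPKM in M7, against 86.5, 99.5 and 134 FPKM in L1 (log2 fold change 4.91 ± 0.43, limma adjusted p = 0.000254). Pyruvate decarboxylase 1 (TRINITY_DN11543_c0_g1) had 2265, 3159 and 2622 FPKM in M7, against 118, 134 and 146 FPKM in L1 (log2 fold change 4.32 ± 0.24, limma adjusted p = 0.000185). Every M7 library was over 10 times every L1 library for both. Over the whole list of 85 glycolysis and citrate cycle unigenes 9 rose and 36 fell, and another alcohol dehydrogenase-like unigene (TRINITY_DN24013_c0_g2) fell, with 0.26, 2.70 and 1.66 FPKM in M7, against 66.3, 67.7 and 43.1 FPKM in L1. The sum of the list was 9294 to 12806 FPKM in M7 and 4513 to 4643 FPKM in L1. Its median of -0.93 lay near the -0.96 of described unigenes. Its shares of 10.6% rising and 42.4% falling lay near their 9.81% and 42.3%. Among all 1888 unigenes kept with a mean of at least 50 FPKM, 25.6% rose and 24.3% fell. Of the 24 members at that level 6 rose, a share close to that, and 0 fell in limma, also at an unadjusted p under 0.05. Cytosolic phosphoglycerate kinase (TRINITY_DN12261_c0_g2), a step of glycolysis that yields ATP, and succinate dehydrogenase subunit 6 (TRINITY_DN16458_c0_g1) of the citrate cycle were chosen from these after their values were seen. The kinase had 1130.0, 1099 and 860.3 FPKM in M7, against 253, 284 and 268 FPKM in L1 (log2 fold change 1.93 ± 0.23, limma adjusted p = 0.000499), and the subunit had 385, 231 and 189.5 FPKM in M7, against 65.7, 63.4 and 52 FPKM in L1 (log2 fold change 2.08 ± 0.34, limma adjusted p = 0.00175).

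Other unigenes tied to low oxygen were looked up after this result. RAP2-12-like (TRINITY_DN1239_c1_g1), of the ethylene response factors that in Arabidopsis switch on fermentation when oxygen falls, had 538, 620.3 and 651 FPKM in M7, against 174, 188 and 204 FPKM in L1 (log2 fold change 1.67 ± 0.23, limma adjusted p = 0.000851). Sucrose synthase, which opens sucrose for glycolysis, went the opposite way in a pair of unigenes named sucrose synthase 7. One (TRINITY_DN26640_c0_g1) had 0.1, 0.22 and 0.06 FPKM in M7, against 11.8, 15.7 and 31.5 FPKM in L1 and the other (TRINITY_DN13795_c0_g1) had 0.18, 0.34 and 0.48 FPKM in M7, against 13.6, 14.2 and 8.51 FPKM in L1. No oxygen was measured, and whether it differed between the stages was not tested.

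Most other sucrose and starch enzymes fell or did not pass the test. In that list 1 of 38 rose and 20 fell (median -1.09), a median that was 0.065 after quantile normalization, and the summed FPKM was 167 to 367 FPKM in M7 and 428 to 438 FPKM in L1. An alpha-amylase (TRINITY_DN20409_c0_g2), which breaks down starch, had 1.01, 3.97 and 3.33 FPKM in M7, against 24.3, 25.9 and 49.3 FPKM in L1 (log2 fold change -3.21 ± 0.48, limma adjusted p = 0.00124). A second, probable alpha-amylase 2 (TRINITY_DN14181_c0_g1), had 5.01, 14.03 and 11.4 FPKM in M7, against 69.5, 63.8 and 41.9 FPKM in L1. The count of rises was 1, or 4 without replicate 1 of M7 and 2 without replicate 3 of L1. Of 13 sugar transporters 3 rose and 6 fell, and the median of -0.81 was 0.49 when members under 5 FPKM were left out. ERD6-like 6 (TRINITY_DN3148_c1_g1), of a family of vacuolar sugar carriers, had 186, 166 and 153 FPKM in M7, against 43.9, 35.95 and 14.2 FPKM in L1 (log2 fold change 2.53 ± 0.45, limma adjusted p = 0.0025). ERD6-like 7 (TRINITY_DN13719_c0_g1), of the same family and chosen after its values were seen, was listed at 0 in all 3 M7 libraries, against 12.03, 13.8 and 35.3 FPKM in L1.

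**Figure D3:**
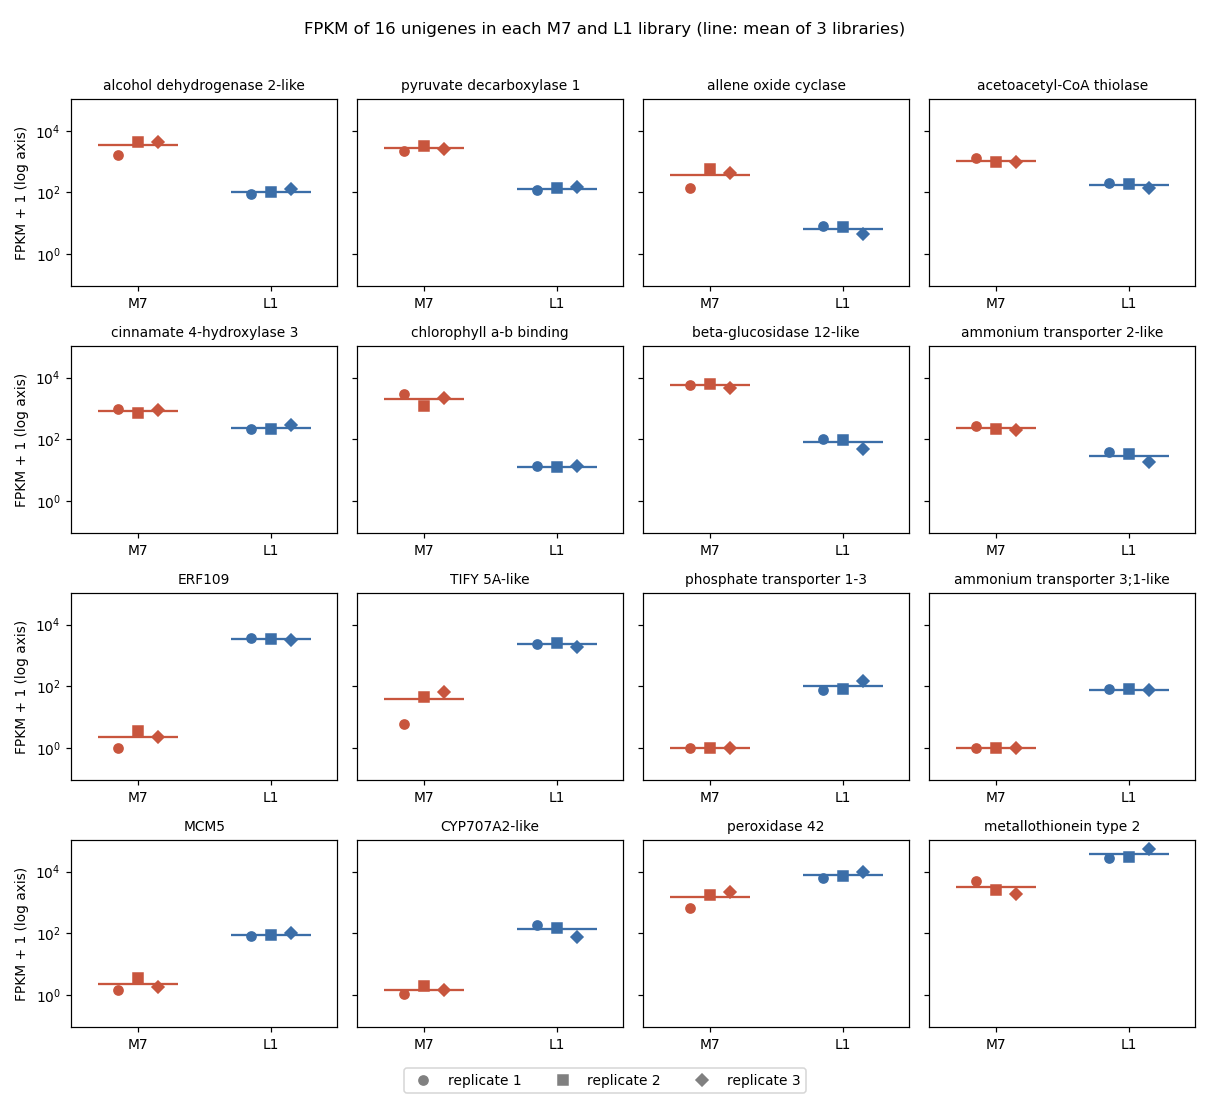
FPKM + 1 on a log axis for 16 unigenes described in the text, in the 3 M7 libraries (red, left) and the 3 L1 libraries (blue, right), with lines at the mean FPKM + 1. In all 16 the stages were fully separated, which the naming rule requires of the unigenes it takes. Of the 16, 8 were higher in M7 (upper rows) and 8 lower in M7 (lower rows).

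Triterpenoid saponins are built from acetyl-CoA through the mevalonate pathway, squalene and its epoxide, and are then oxidised by cytochrome P450 enzymes and glycosylated. In the mevalonate list 5 of 17 rose and 5 fell (median -0.24) (2 fell without replicate 1 or 2 of L1), a median that was positive after median ratio rescaling (0.36) and quantile normalization (0.49) and without replicate 1 of L1 (0.091) or replicate 1 of M7 (0.39). The summed FPKM was 2082 to 2469 FPKM in M7 and 843 to 1191 FPKM in L1. Acetoacetyl-CoA thiolase (TRINITY_DN1177_c0_g1), the first enzyme, had 1268, 938 and 966 FPKM in M7, against 204, 182 and 140.5 FPKM in L1 (log2 fold change 2.59 ± 0.27, limma adjusted p = 0.0003), and a second unigene of this name (TRINITY_DN2104_c0_g1) had 232, 123 and 149 FPKM in M7, against 31.2, 18.4 and 9.74 FPKM in L1 (log2 fold change 3.12 ± 0.47, limma adjusted p = 0.00128). Of 8 unigenes of HMG-CoA reductase, the rate-limiting enzyme, 2 rose, 3 fell and 3 did not pass the test. The 2 with the largest falls are given by the naming rule. One (TRINITY_DN2702_c0_g2) had 2.94, 12.8 and 3.43 FPKM in M7, against 51.5, 54 and 51.8 FPKM in L1, and the other (TRINITY_DN23299_c0_g1) had 6.16, 10.2 and 5.07 FPKM in M7, against 50.3, 46.6 and 86.7 FPKM in L1.

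Further along, the list of squalene, oxidosqualene and triterpene enzymes had 3 rises and 10 falls among 30 members (1 rose without replicate 2 of L1, 5 rose without replicate 1 of M7), and its median of -0.43 became 0.49 after quantile normalization. Squalene epoxidase 1 (TRINITY_DN26458_c0_g2), which makes the epoxide, had 48.6, 61.4 and 70.02 FPKM in M7, against 11.8, 11.6 and 28.1 FPKM in L1 (log2 fold change 1.85 ± 0.42, limma adjusted p = 0.00748). A more abundant squalene monooxygenase (TRINITY_DN3327_c0_g1) did not pass the test, with 102, 221 and 166 FPKM in M7, against 255, 268 and 243 FPKM in L1 (log2 fold change -0.72 ± 0.34, limma adjusted p = 0.108). The choice of both came after their values were seen. The only DEG of the list, a beta-amyrin 28-oxidase (TRINITY_DN10108_c0_g1) of the P450 family that oxidises the triterpene backbone, had 6.77, 59.2 and 40.7 FPKM in M7, against 4.29, 2.73 and 1.63 FPKM in L1 (log2 fold change 2.85 ± 0.78, limma adjusted p = 0.0171), and it lost the call without replicate 2 or 3 of L1 or replicate 3 of M7 (limma adjusted p up to 0.0881, log2 fold change 2.54 to 2.85). The plastid pathway to isoprenoids had 4 rises and 6 falls in 18, and its median of -0.26 was 0.14 after median ratio rescaling and 0.91 after quantile normalization, and 0.012 without replicate 3 of L1.

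Of 13 mono- and sesquiterpene synthases 0 rose and 8 fell (median -2.62), and the median was negative under the 3 scalings. The limma count of rises was 0 at an unadjusted p under 0.05 as well. Vetispiradiene synthase 2-like (TRINITY_DN33742_c1_g2) had 2.08, 1.13 and 0.75 FPKM in M7, against 99.1, 129 and 236 FPKM in L1 (log2 fold change -6.01 ± 0.43, limma adjusted p = 0.000254). Sesquiterpene synthase 5 (TRINITY_DN10943_c0_g1), matched to Valeriana of the same order as Dipsacus, was listed at 0 in all 3 M7 libraries, against 61.01, 68.01 and 36.2 FPKM in L1. Iridoids are monoterpenes that this plant family also makes, and in their list 7 of 42 rose and 22 fell (median -1.06), while the summed FPKM was 6572 to 24859.8 FPKM in M7 and 2053 to 2231 FPKM in L1, without overlap. 7-deoxyloganetin glucosyltransferase (TRINITY_DN307_c0_g2), which in other plants adds glucose on the iridoid route, had 0.42, 0.56 and 3.11 FPKM in M7, against 115, 114 and 89.9 FPKM in L1 (log2 fold change -5.68 ± 0.47, limma adjusted p = 0.000254). Geraniol 8-hydroxylase-like (TRINITY_DN10656_c0_g2), the entry enzyme of that route, had 0.3, 1.39 and 0.39 FPKM in M7, against 35.3, 36.02 and 27.4 FPKM in L1. A pair of strictosidine synthase-like unigenes went the other way. One (TRINITY_DN3787_c0_g1) was the second most abundant unigene of M7, with 19150.2, 5845 and 5144 FPKM in M7, against 391, 379.6 and 189 FPKM in L1, and strictosidine synthase-like 12 (TRINITY_DN14154_c0_g1) had 4668, 4853 and 545 FPKM in M7, against 19.1, 10.7 and 9.91 FPKM in L1 (log2 fold change 7.40 ± 0.85, limma adjusted p = 0.000405). Replicate 3 was the lowest M7 library for both. The names come from database matches, and the family holds members without that activity.

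Cytochrome P450 unigenes counted 6 rises and 46 falls in 83 (3 rose without replicate 2 or 3 of L1), with a median of -1.49, or 7.23% rising and 55.4% falling beside 9.81% and 42.3% of described unigenes. UDP-glycosyltransferases of small molecules counted 4 rises and 25 falls in 47 (2 rose without replicate 1 or 2 of L1), with a median of -1.17. A crocetin glucosyltransferase-like unigene (TRINITY_DN22829_c0_g1) was the glycosyltransferase DEG that rose, with 60.04, 59.5 and 111 FPKM in M7, against 8.05, 10.1 and 10.8 FPKM in L1 (log2 fold change 2.81 ± 0.36, limma adjusted p = 0.00059). A P450 of unnamed family (TRINITY_DN117711_c0_g1) had 35.9, 30.3 and 26.5 FPKM in M7, against 5.48, 4.34 and 2.26 FPKM in L1. CYP749A22-like (TRINITY_DN11213_c0_g1) fell, with 0, 0 and 0.04 FPKM in M7, against 40.3, 46.7 and 96.5 FPKM in L1. Sulfo-, methyl- and acyltransferases of small molecules had 6 rises and 11 falls in 23, or 26.1% and 47.8%, and their median of -1.02 was 0.35 after quantile normalization. A BAHD acyltransferase (TRINITY_DN12284_c0_g1), of a family that acylates many plant products, had 1046, 673 and 611 FPKM in M7, against 32.7, 37.2 and 72.8 FPKM in L1 (log2 fold change 4.05 ± 0.39, limma adjusted p = 0.000266). A trans-resveratrol di-O-methyltransferase (TRINITY_DN16661_c0_g1), named for stilbene methylation in grape, had 1.08, 1.39 and 0.31 FPKM in M7, against 132, 114 and 48.2 FPKM in L1 (log2 fold change -5.60 ± 0.48, limma adjusted p = 0.000254).

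Exoglycosidases, which trim sugars from glycosides and wall polymers, had 8 rises and 34 falls in 72 (5 rose without replicate 2 or 3 of L1), but their summed FPKM was 9502 to 19186 FPKM in M7 and 2191 to 2619.7 FPKM in L1. Beta-glucosidase 24 (TRINITY_DN2169_c0_g2) had 12334, 6367 and 3629.5 FPKM in M7, against 249, 236 and 118 FPKM in L1 (log2 fold change 5.10 ± 0.51, limma adjusted p = 0.000278). An alpha-mannosidase (TRINITY_DN10146_c0_g2), of the enzymes that trim mannose, had 0.33, 2.31 and 0.8 FPKM in M7, against 67.2, 72.3 and 133 FPKM in L1 (log2 fold change -5.46 ± 0.47, limma adjusted p = 0.000254). A beta-galactosidase (TRINITY_DN1841_c0_g1) had 1.18, 3.93 and 2.42 FPKM in M7, against 129, 125 and 83.2 FPKM in L1. So the sum followed a few beta-glucosidases. The shares of the list were 11.1% rising and 47.2% falling, beside 9.81% and 42.3% of described unigenes. Of its 11 members with a mean of at least 50 FPKM, 4 rose and 5 fell. In the flavonoid list 4 of 30 rose and 17 fell (median -1.61). An isoflavone reductase-like unigene (TRINITY_DN16977_c0_g1) had 5.29, 4.39 and 4.92 FPKM in M7, against 62.9, 61.7 and 91.9 FPKM in L1 (log2 fold change -3.62 ± 0.31, limma adjusted p = 0.000254). Chalcone synthase (TRINITY_DN10818_c0_g1), the entry enzyme of flavonoid synthesis, was chosen after its values were seen and had 34.1, 8.74 and 35.1 FPKM in M7, against 0, 0 and 0.05 FPKM in L1.

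Jasmonate is made from linolenic acid by allene oxide synthase, allene oxide cyclase and 12-oxophytodienoate reductase, and TIFY (JAZ) proteins hold back its response while being switched on by it. In synthesis 6 of 15 rose and 2 fell (median 0.61) (1 fell without replicate 1, 2 or 3 of L1 or replicate 1 or 3 of M7), and the summed FPKM was 1072 to 1382 FPKM in M7 and 355 to 361 FPKM in L1. Allene oxide cyclase (TRINITY_DN10456_c0_g1) had 137, 563 and 429 FPKM in M7, against 6.97, 6.44 and 3.53 FPKM in L1 (log2 fold change 5.64 ± 0.57, limma adjusted p = 0.000285). A second allene oxide cyclase (TRINITY_DN35460_c0_g1) had 285, 356 and 134 FPKM in M7, against 11.4, 10.1 and 2.46 FPKM in L1 (log2 fold change 4.94 ± 0.61, limma adjusted p = 0.000515). Allene oxide synthase (TRINITY_DN25212_c0_g1), chosen after its values were seen, had 128, 110.2 and 118 FPKM in M7, against 19.1, 20.6 and 17.9 FPKM in L1 (log2 fold change 2.57 ± 0.26, limma adjusted p = 0.000285). For these unigenes each M7 library was above each L1 library, which the naming rule required of the cyclases. 12-oxophytodienoate reductase 3 (TRINITY_DN3604_c0_g1), also chosen later, had 274, 139 and 101 FPKM in M7, against 76.03, 76.2 and 59.7 FPKM in L1 (log2 fold change 1.15 ± 0.41, limma adjusted p = 0.046), and it lost the call without any 1 of the L1 libraries or replicate 2 of M7 (limma adjusted p up to 0.132, log2 fold change 1.03 to 1.23) and, by its size of 0.75 on the log2 scale, without replicate 1 of M7. The median of the list, 0.61, was 1.21 after median ratio rescaling and 0.89 after quantile normalization but -0.25 without the filter on low values.

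Jasmonate signalling went the other way in its most abundant members. Of 15 members 3 rose and 7 fell (1 rose without replicate 1 or 2 of L1), and the summed FPKM was 577 to 683 FPKM in M7 and 2807 to 3429 FPKM in L1. TIFY 5A-like (TRINITY_DN31583_c0_g1) had 4.99, 43.01 and 64 FPKM in M7, against 2415, 2498 and 1954 FPKM in L1 (log2 fold change -6.46 ± 0.84, limma adjusted p = 0.000658). TIFY 10B (TRINITY_DN3331_c0_g1) had 12.2, 50.6 and 65.2 FPKM in M7, against 569.5, 529 and 521 FPKM in L1 (log2 fold change -3.92 ± 0.60, limma adjusted p = 0.00128). TIFY 6B-like (TRINITY_DN320_c0_g1), a repressor of the same family chosen after its values were seen, had 551, 349.8 and 308 FPKM in M7, against 164, 168 and 88.8 FPKM in L1 (log2 fold change 1.53 ± 0.37, limma adjusted p = 0.0106). Thus repressors of a single family moved in both directions, and replicate 1 of M7 was the lowest for the TIFY unigenes that fell. Leaving out replicate 1 of M7 and replicate 3 of L1 together also gave 1 rise.

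Abscisic acid, the hormone of water shortage, had falls in enzymes of both its synthesis and its breakdown. The abscisic acid 8'-hydroxylase CYP707A2-like (TRINITY_DN335_c0_g1), which inactivates the hormone, had 0.11, 0.92 and 0.43 FPKM in M7, against 181, 146 and 73.2 FPKM in L1 (log2 fold change -6.44 ± 0.44, limma adjusted p = 0.000247). A second 8'-hydroxylase (TRINITY_DN3724_c0_g1) was listed at 0 in all 3 M7 libraries, against 19.4, 22.9 and 59.03 FPKM in L1. NCED1 (TRINITY_DN25604_c0_g1), the rate-limiting enzyme of its synthesis and chosen after its values were seen, had 2.70, 5.23 and 6.44 FPKM in M7, against 96.7, 91.7 and 41.1 FPKM in L1 (log2 fold change -3.71 ± 0.46, limma adjusted p = 0.000555). The receptor PYL9-like (TRINITY_DN17836_c0_g1) rose, with 28.4, 29.98 and 67.7 FPKM in M7, against 3.99, 3.42 and 5.70 FPKM in L1 (log2 fold change 2.91 ± 0.43, limma adjusted p = 0.00115). In the whole list 4 of 30 rose and 11 fell (median -0.52), and the median became 0.12 after quantile normalization.

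Ethylene unigenes had 4 rises and 6 falls in 21 (8 rose without replicate 1 of M7), and the median of -0.17 changed sign after median ratio rescaling (0.35) and quantile normalization (0.51), and without replicate 1 (0.17) or 2 (0.081) of M7. EIN3-binding F-box protein 2-like (TRINITY_DN1694_c0_g1), which removes the ethylene factor EIN3, had 195, 156 and 84.8 FPKM in M7, against 8.26, 7.74 and 3.11 FPKM in L1 (log2 fold change 4.32 ± 0.47, limma adjusted p = 0.000351). A 1-aminocyclopropane-1-carboxylate oxidase homolog (TRINITY_DN3840_c2_g1) was the most abundant unigene of M7, with 10806, 13052 and 14963 FPKM in M7, against 1139.9, 1298 and 2556 FPKM in L1 (log2 fold change 3.04 ± 0.34, limma adjusted p = 0.000391). Homologs of this name are dioxygenases that need not make ethylene. A further such homolog (TRINITY_DN2386_c0_g1), chosen after its values were seen, had 500.0, 993 and 774 FPKM in M7, against 121, 127 and 171 FPKM in L1. S-adenosylmethionine synthase (TRINITY_DN2416_c0_g1), which feeds ethylene synthesis and methylation and was also chosen later, had 13160.5, 5615 and 5139 FPKM in M7, against 1030.5, 769 and 292 FPKM in L1 (log2 fold change 3.56 ± 0.56, limma adjusted p = 0.00155). All 4 separated the stages, which the naming rule required of those not chosen after their values were seen.

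In the auxin list 11 of 71 rose and 36 fell (median -1.15), or 15.5% rising and 50.7% falling beside 9.81% and 42.3% of described unigenes. A pair of unigenes of the Aux/IAA repressor IAA13 fell, one (TRINITY_DN34452_c0_g2) with 0.34, 1.72 and 1.28 FPKM in M7, against 53.8, 59.7 and 71.8 FPKM in L1, the other (TRINITY_DN34452_c0_g1) with 0.34, 3.18 and 2.73 FPKM in M7, against 66.9, 62.5 and 52.2 FPKM in L1, and since they share an assembly cluster they may share reads. SAUR24 (TRINITY_DN19155_c0_g1), of the small auxin-induced RNAs, rose, with 104, 107 and 102 FPKM in M7, against 9.83, 6.14 and 1.72 FPKM in L1 (log2 fold change 4.15 ± 0.52, limma adjusted p = 0.000566). Of 23 cytokinin and strigolactone unigenes 1 rose and 14 fell (median -1.66), with the number of rises at 2 without replicate 1 of M7. The strigolactone receptor homolog D14-like (TRINITY_DN17808_c0_g1) had 0, 0 and 0.06 FPKM in M7, against 64.9, 72.02 and 31.7 FPKM in L1 (log2 fold change -5.73 ± 0.40, limma adjusted p = 0.000254). Gibberellin and brassinosteroid unigenes had 6 rises and 12 falls in 25 (3 rose without replicate 2 of L1), with a median of -1.04 that was 0.0033 after quantile normalization. Among small cysteine-rich proteins regulated by gibberellin, snakin-2-like (TRINITY_DN16571_c0_g1), an antimicrobial peptide in potato, had 419, 472 and 1487 FPKM in M7, against 120.2, 103 and 50.8 FPKM in L1, while gibberellin-regulated protein 14-like (TRINITY_DN13458_c0_g1) had 0.35, 0.16 and 0 FPKM in M7, against 32.6, 42.7 and 73.9 FPKM in L1.

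Transcription factor families were mostly lower in M7. MYB factors had 2 rises and 43 falls in 56 (median -2.09), which is 76.8% falling beside 42.3% of described unigenes, and their summed FPKM was 155 to 372 FPKM in M7 and 1713 to 2622 FPKM in L1. Without any 1 of the L1 libraries 0 rose in limma, and 1 to 2 did at an unadjusted p under 0.05. RADIALIS-like 3 (TRINITY_DN24929_c1_g1), of the short MYB-related factors, had 0, 5.10 and 3.08 FPKM in M7, against 393, 449 and 1164 FPKM in L1 (log2 fold change -7.66 ± 0.75, limma adjusted p = 0.000269). MYB108-like (TRINITY_DN3027_c0_g1), a jasmonate-responsive factor in Arabidopsis chosen after its values were seen, had 0.53, 1.47 and 1 FPKM in M7, against 159, 149.6 and 63.8 FPKM in L1 (log2 fold change -5.89 ± 0.45, limma adjusted p = 0.000254). Of 31 WRKY factors 0 rose and 18 fell (1 rose without replicate 3 of L1 or replicate 1 of M7, 2 rose without replicate 1 of L1), and of 27 NAC factors 0 rose and 16 fell (1 rose without replicate 1 of M7). At an unadjusted limma p under 0.05, 1 WRKY factor and 0 NAC factors were over the fold threshold for a rise. WRKY33 (TRINITY_DN2030_c0_g1), a regulator of defence in Arabidopsis also chosen later, had 4.21, 12.5 and 13.2 FPKM in M7, against 315, 309.7 and 361 FPKM in L1 (log2 fold change -5.04 ± 0.44, limma adjusted p = 0.000254). WRKY transcription factor 2 (TRINITY_DN2716_c0_g1) had 2.77, 11.03 and 6.39 FPKM in M7, against 164, 180.1 and 460.3 FPKM in L1. NAC domain-containing protein 83-like (TRINITY_DN1218_c0_g2) had 0.9, 11.3 and 12.5 FPKM in M7, against 131, 134 and 202 FPKM in L1. Medians of the MYB, WRKY and NAC lists stayed negative under the 3 scalings.

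In the AP2/ERF family 11 of 73 rose and 40 fell (median -1.501). ERF109 (TRINITY_DN1369_c0_g1), a fast jasmonate and wound response factor of Arabidopsis roots, had 0, 2.66 and 1.33 FPKM in M7, against 3743, 3487 and 3169.5 FPKM in L1 (log2 fold change -10.73 ± 0.49, limma adjusted p = 0.000129), the largest fall among the unigenes taken by the naming rule. An AP2/ERF domain protein (TRINITY_DN1638_c0_g1) moved the other way, with 114, 65.7 and 106 FPKM in M7, against 4.18, 2.72 and 1.98 FPKM in L1 (log2 fold change 4.60 ± 0.37, limma adjusted p = 0.000254). In the bHLH family 4 of 57 rose and 31 fell (median -1.35), or 9 rose without replicate 1 of M7. bHLH25-like (TRINITY_DN1609_c0_g1) had 0.16, 3.56 and 1.81 FPKM in M7, against 428, 449 and 413 FPKM in L1 (log2 fold change -7.45 ± 0.51, limma adjusted p = 0.000247), and bHLH149-like (TRINITY_DN2957_c0_g3) had 145, 72.8 and 219.9 FPKM in M7, against 9.07, 8.63 and 1.97 FPKM in L1 (log2 fold change 4.34 ± 0.62, limma adjusted p = 0.000967). Of 18 homeobox-leucine zipper factors 0 rose in limma, also at an unadjusted p under 0.05, and 13 fell (1 rose without replicate 1 of M7). ATHB-13-like (TRINITY_DN19024_c0_g1) had 1.14, 12.8 and 5.75 FPKM in M7, against 63.9, 75.8 and 83.05 FPKM in L1.

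Factors that pattern the root included both directions. In that list 6 of 44 rose and 22 fell, or 13.6% and 50% beside 9.81% and 42.3% of described unigenes. Its median of -1.003 was 0.22 after quantile normalization. The scarecrow-like factor PAT1 (TRINITY_DN11157_c0_g1), of the GRAS family, had 29.5, 66.5 and 86.04 FPKM in M7, against 760.0, 763 and 980.1 FPKM in L1 (log2 fold change -3.88 ± 0.42, limma adjusted p = 0.000348). WUSCHEL-related homeobox 4 (TRINITY_DN13556_c0_g1), which maintains the cambium in Arabidopsis and was chosen after its values were seen, had 8.76, 13.2 and 9.02 FPKM in M7, against 76.7, 78.1 and 110.1 FPKM in L1 (log2 fold change -2.98 ± 0.32, limma adjusted p = 0.000329). LOB domain-containing protein 38 (TRINITY_DN275_c0_g2), which in Arabidopsis represses nitrogen responses, had 40.4, 39.6 and 38.1 FPKM in M7, against 11.1, 10.2 and 6.52 FPKM in L1 (log2 fold change 2.00 ± 0.32, limma adjusted p = 0.00152).

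Phase change factors are regulators that shift a plant from juvenile to adult growth. In their list 9 of 36 rose and 18 fell (median -1.35) (4 rose without replicate 2 of L1, 5 rose without replicate 1 or 3 of L1 or replicate 3 of M7). Squamosa promoter-binding-like protein 9 (TRINITY_DN28849_c0_g1), which promotes the adult phase in Arabidopsis, had 111, 46.4 and 63.7 FPKM in M7, against 2.59, 3.23 and 1.88 FPKM in L1 (log2 fold change 4.31 ± 0.41, limma adjusted p = 0.000261). APETALA 2 (TRINITY_DN1141_c1_g1), of a family that delays that change, had 0.61, 4.17 and 1.85 FPKM in M7, against 70.7, 66.6 and 94.8 FPKM in L1 (log2 fold change -4.75 ± 0.48, limma adjusted p = 0.000282). CONSTANS-LIKE 13 (TRINITY_DN19782_c0_g1) rose and CONSTANS-LIKE 10-like (TRINITY_DN3817_c0_g1) fell. The first had 108, 121 and 142 FPKM in M7, against 7.48, 9.25 and 4.31 FPKM in L1, and the second had 2.73, 3.22 and 4.97 FPKM in M7, against 89.3, 73.5 and 23.4 FPKM in L1.

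Light signalling and photosynthesis proteins were measured in roots of both stages. HY5 (TRINITY_DN11764_c0_g2), a factor that promotes development in light, had 10.4, 105 and 138 FPKM in M7, against 0, 0.22 and 0 FPKM in L1 (log2 fold change 5.69 ± 0.92, limma adjusted p = 0.00169). B-box zinc finger 19 (TRINITY_DN267_c0_g1), of a family that works with HY5, had 0.1, 0.92 and 1.31 FPKM in M7, against 45.5, 39.9 and 47.97 FPKM in L1 (log2 fold change -4.74 ± 0.38, limma adjusted p = 0.000254). In the light and clock list 5 of 21 rose and 8 fell (median 0.15), a median that was -0.64 without replicate 3 of L1, -0.32 without replicate 2 of M7 and -0.19 without replicate 3 of M7, which also left 3 rises. In the photosynthesis list 9 of 38 rose and 12 fell (median -0.02), which was positive without replicate 1 or 3 of L1 or replicate 1 or 2 of M7 (0.0048 to 0.23) and after median ratio rescaling (0.49) and quantile normalization (1.00). Summed FPKM of photosynthesis proteins was 1812 to 3754 FPKM in M7 and 367 to 424 FPKM in L1. The chlorophyll a-b binding protein TRINITY_DN22710_c0_g1 alone held most of the M7 sum, with 2913, 1196 and 2148 FPKM in M7, against 12.6, 11.7 and 12.5 FPKM in L1. Smaller rises were seen in photosystem II 5 kDa protein (TRINITY_DN19324_c0_g1), with 85.1, 94.5 and 149 FPKM in M7, against 9.98, 6.77 and 19.5 FPKM in L1, and in PSB28 (TRINITY_DN12148_c0_g1), with 31.8, 37.03 and 53.9 FPKM in M7, against 0.59, 2.46 and 2.25 FPKM in L1, both of photosystem II. Photosystem I subunit XI (TRINITY_DN33709_c0_g4) had 37.7, 19.04 and 35.8 FPKM in M7, against 3.78, 3.47 and 1.60 FPKM in L1. A chlorophyll a-b binding protein of light-harvesting complex II (TRINITY_DN1105_c0_g2) fell, with 8.88, 4.63 and 7.02 FPKM in M7, against 19.4, 20.6 and 48.1 FPKM in L1. The last 4 were chosen after their values were seen. The M7 sums of the leaf markers given above rest largely on the same unigene, TRINITY_DN22710_c0_g1. The part of those markers in these values was not tested, and the light that reached the roots was not recorded.

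Defence proteins moved in both directions, at shares not far from those of described unigenes. In the list of pathogenesis-related proteins, chitinases and germins 10 of 92 rose and 46 fell (median -1.11), or 10.9% and 50% beside 9.81% and 42.3% of described unigenes. The summed FPKM was 4714 to 11571 FPKM in M7 and 3244 to 3856 FPKM in L1. Germin-like protein 9-2 (TRINITY_DN15354_c0_g4), of a family of extracellular proteins, had 0.07, 0 and 0 FPKM in M7, against 466, 508 and 856 FPKM in L1 (log2 fold change -9.17 ± 0.34, limma adjusted p = 6.47e-05). Endochitinase EP3 (TRINITY_DN11328_c0_g1), which cuts chitin, had 151, 82.5 and 117 FPKM in M7, against 2.05, 1.96 and 2.22 FPKM in L1 (log2 fold change 5.22 ± 0.33, limma adjusted p = 0.000223). In the PR-10 proteins named major allergen Pru ar 1-like, the most abundant were a pair chosen after their values were seen, of which 1 (TRINITY_DN2988_c0_g1) had 1389, 4681 and 2325 FPKM in M7, against 457, 463 and 662 FPKM in L1 and the other (TRINITY_DN3840_c0_g2) had 1748, 4103 and 2102 FPKM in M7, against 250.4, 289.8 and 466 FPKM in L1. Replicate 2 was the highest M7 library for both. Another unigene of this name (TRINITY_DN15869_c0_g1), also chosen later, went the other way, with 0, 0.09 and 0 FPKM in M7, against 209, 206 and 275 FPKM in L1. Receptor-like kinases, which sense peptides and microbes at the cell surface, had 14 rises and 123 falls in 259 (24 rises without replicate 1 of M7), with a median of -1.20. An L-type lectin receptor kinase IX.1-like unigene (TRINITY_DN1728_c0_g2) was the DEG that rose, with 20.3, 70.9 and 13.6 FPKM in M7, against 0.4, 0.08 and 0 FPKM in L1 (log2 fold change 4.62 ± 0.62, limma adjusted p = 0.00072).

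Calcium signalling was among the lists with few rises, 5 of 114, against 64 falls (median -1.71). Its summed FPKM was 992 to 2353 FPKM in M7 and 5827 to 6331 FPKM in L1. Of its 20 members with a mean of at least 50 FPKM 0 rose in limma, also at an unadjusted p under 0.05, and 13 fell. Among all unigenes kept at that level 25.6% rose and 24.3% fell. CML19 (TRINITY_DN114295_c0_g1), a calmodulin-like calcium sensor, had 1.30, 4.14 and 7.89 FPKM in M7, against 896, 826 and 663 FPKM in L1 (log2 fold change -7.39 ± 0.51, limma adjusted p = 0.000247). Calcium-dependent protein kinase 1-like (TRINITY_DN1635_c0_g1) had 0.04, 2.42 and 1.26 FPKM in M7, against 202, 216 and 374 FPKM in L1 (log2 fold change -6.99 ± 0.51, limma adjusted p = 0.000254). The calcium-binding protein PBP1-like (TRINITY_DN15102_c0_g2), a partner of the auxin transport kinase PINOID in Arabidopsis, rose, with 157, 48.9 and 56.6 FPKM in M7, against 2.91, 2.18 and 1.07 FPKM in L1 (log2 fold change 4.70 ± 0.53, limma adjusted p = 0.000374). The first pair was low in every M7 library, with replicate 1 lowest for either.

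Stress proteins varied by type. Of 98 heat shock proteins and DnaJ chaperones 4 rose and 50 fell (median -1.37, or 8 rises without replicate 1 of M7). A heat shock protein 70 family unigene (TRINITY_DN3414_c0_g2) had 1.45, 13.1 and 8.15 FPKM in M7, against 82.7, 92.7 and 157 FPKM in L1 (log2 fold change -3.98 ± 0.67, limma adjusted p = 0.00205). A far more abundant one (TRINITY_DN1731_c0_g1), chosen after its values were seen, did not pass the test, with 1326, 2397 and 2962 FPKM in M7, against 1260.3, 1155 and 905 FPKM in L1 (limma adjusted p = 0.0504), but did without replicate 1 of M7 (log2 fold change 1.28). Of 17 dehydration and late embryogenesis proteins 3 rose and 7 fell (median 0.12, or -0.23 when M7 lacked replicate 2 and -0.017 when L1 lacked replicate 3), and the summed FPKM was 1025 to 1972 FPKM in M7 and 483 to 524 FPKM in L1. Cold-regulated 413 plasma membrane protein 1 (TRINITY_DN1115_c0_g1) had 124, 304 and 196 FPKM in M7, against 24.7, 25.6 and 19.9 FPKM in L1 (log2 fold change 3.01 ± 0.38, limma adjusted p = 0.000594). Among 131 antioxidant and glutathione unigenes 16 of 131 rose and 49 fell (median -0.78). Metallothionein type 2 (TRINITY_DN2968_c0_g1), a small metal-binding protein chosen after its values were seen as the most abundant unigene of L1, had 5119, 2496 and 1935 FPKM in M7, against 27904, 30484 and 55042 FPKM in L1 (log2 fold change -3.63 ± 0.43, limma adjusted p = 0.000452). A probable glutathione S-transferase (TRINITY_DN347_c1_g1), of the enzymes that tag toxic compounds with glutathione, was listed at 0 in all 3 M7 libraries, against 644, 691 and 1032 FPKM in L1. Its relative U17-like (TRINITY_DN19340_c0_g2) had 116, 103 and 149.7 FPKM in M7, against 7.46, 5.77 and 3.78 FPKM in L1 (log2 fold change 4.24 ± 0.34, limma adjusted p = 0.000254).

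Ribosomal proteins split by level. Of 196 unigenes 22 rose and 113 fell (median -1.75), yet their summed FPKM was 33028 to 40769 FPKM in M7 and 18280.4 to 23269 FPKM in L1. Of the 51 with a mean of at least 50 FPKM 19 rose and 1 fell (median 0.84), of the 50 between 5 and 50 FPKM 2 rose and 30 fell (median -3.50), and of the 95 below 5 FPKM 1 rose and 82 fell (median -2.24). Over all unigenes kept, the shares at a mean of at least 50 FPKM were 25.6% rising and 24.3% falling among 1888. They were 12.7% and 37.8% among 8524 between 5 and 50 FPKM, and 10.4% and 44.7% among 9790 below 5 FPKM. Ribosomal protein unigenes under 0.1 FPKM in all M7 libraries numbered 105 of 196, a share of 53.6% beside 10.5% of described unigenes and the highest of the 52 lists. Such unigenes pass the filter only through L1, so their lower level in M7 was fixed in advance. Every living plant cell makes ribosomal proteins, and the origin of the 105 was not tested. Acidic ribosomal protein P1-like (TRINITY_DN34646_c0_g2) had 3481, 2354 and 2747 FPKM in M7, against 650.4, 607 and 226 FPKM in L1 (log2 fold change 2.66 ± 0.44, limma adjusted p = 0.00193). Ubiquitin-ribosomal protein L40-like (TRINITY_DN26191_c0_g2), chosen after its values were seen, had 8035, 4902 and 5684 FPKM in M7, against 1809.5, 1673 and 1716 FPKM in L1 (log2 fold change 1.81 ± 0.25, limma adjusted p = 0.000786).

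**Figure D4:**
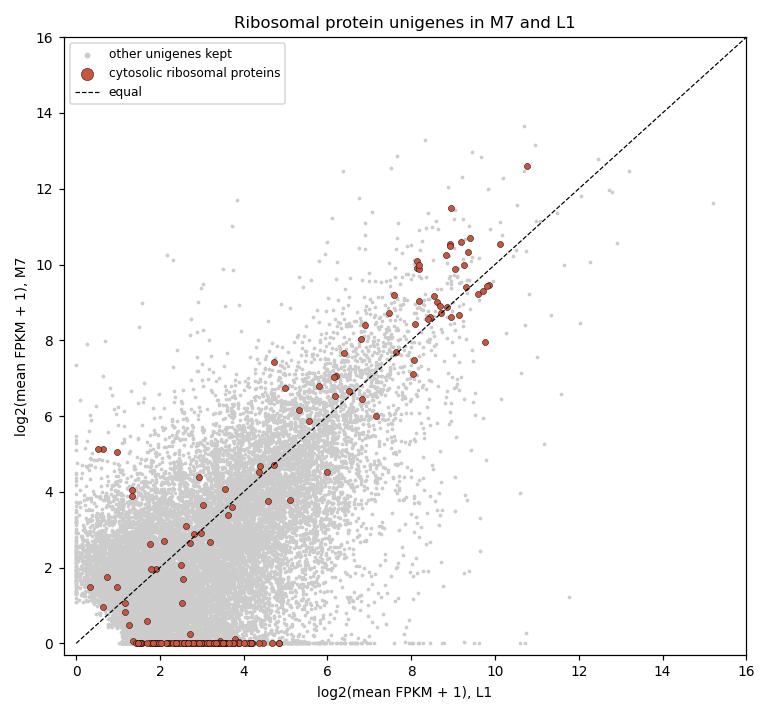
Mean level of each unigene in M7 (vertical axis) against L1 (horizontal axis), both as log2(mean FPKM + 1), with the 196 cytosolic ribosomal protein unigenes in red, the other unigenes kept in grey and a dashed line at equal levels. Red points lie in 2 sets, an abundant one at or above the line and a row at 0 in M7 with low to middle levels in L1.

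The median of the respiratory chain stayed near 0 as deposited, above the -0.96 of described unigenes. In this list 8 of 55 rose and 18 fell (median -0.03), or 14.5% and 32.7% beside 9.81% and 42.3% of described unigenes. Its median was 0.54 after median ratio rescaling and 0.45 after quantile normalization, beside -0.54 and -0.05 of described unigenes. It was 0.022 to 0.10 without replicate 1 or 3 of L1 or replicate 1 or 3 of M7. Cytochrome c (TRINITY_DN18293_c0_g2), the mobile carrier of the chain and chosen after its values were seen, had 337, 306 and 395 FPKM in M7, against 85.2, 83.5 and 88.2 FPKM in L1 (log2 fold change 1.99 ± 0.24, limma adjusted p = 0.000508). Alternative oxidase 1d (TRINITY_DN2755_c0_g1), which bypasses part of the chain, had 2.84, 16.1 and 13.6 FPKM in M7, against 68.2, 72.5 and 89.3 FPKM in L1 (log2 fold change -2.97 ± 0.59, limma adjusted p = 0.00431).

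Protein turnover and transport lists lay close to the background or below it in falls. E3 ubiquitin ligases and proteasome subunits had 30 rises and 102 falls in 288, with a median of -0.58 that was 0.16 after quantile normalization. E3 ligase RMA3-like (TRINITY_DN10667_c0_g1), of a family that works at the endoplasmic reticulum, had 186, 115 and 148 FPKM in M7, against 6.66, 7.97 and 9.24 FPKM in L1 (log2 fold change 4.05 ± 0.31, limma adjusted p = 0.000254). U-box domain-containing protein 9 (TRINITY_DN32812_c0_g1) had 0, 0.99 and 0.31 FPKM in M7, against 138, 138 and 225 FPKM in L1 (log2 fold change -6.89 ± 0.40, limma adjusted p = 0.000185). Among proteases and autophagy unigenes 15 of 125 rose and 56 fell (median -1.06). The cysteine protease SAG39-like (TRINITY_DN17414_c0_g1), of a senescence-associated type, was listed at 0 in all 3 M7 libraries, against 51.7, 57.8 and 86.3 FPKM in L1. Aspartic proteinase nepenthesin-1 (TRINITY_DN15175_c0_g1) had 32.6, 37.7 and 37.1 FPKM in M7, against 4.13, 4.90 and 1.87 FPKM in L1 (log2 fold change 3.05 ± 0.37, limma adjusted p = 0.000514). Among ABC transporters 4 of 63 rose and 27 fell (median -0.86), and the median was 0.18 after quantile normalization. ABC transporter B family member 21-like (TRINITY_DN20989_c0_g2) had 0.43, 1.23 and 0.39 FPKM in M7, against 45.7, 47.5 and 35.5 FPKM in L1, and I family member 21-like (TRINITY_DN1173_c0_g1) had 158, 166 and 356 FPKM in M7, against 20.2, 21.02 and 14.8 FPKM in L1.

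**Figure D5:**
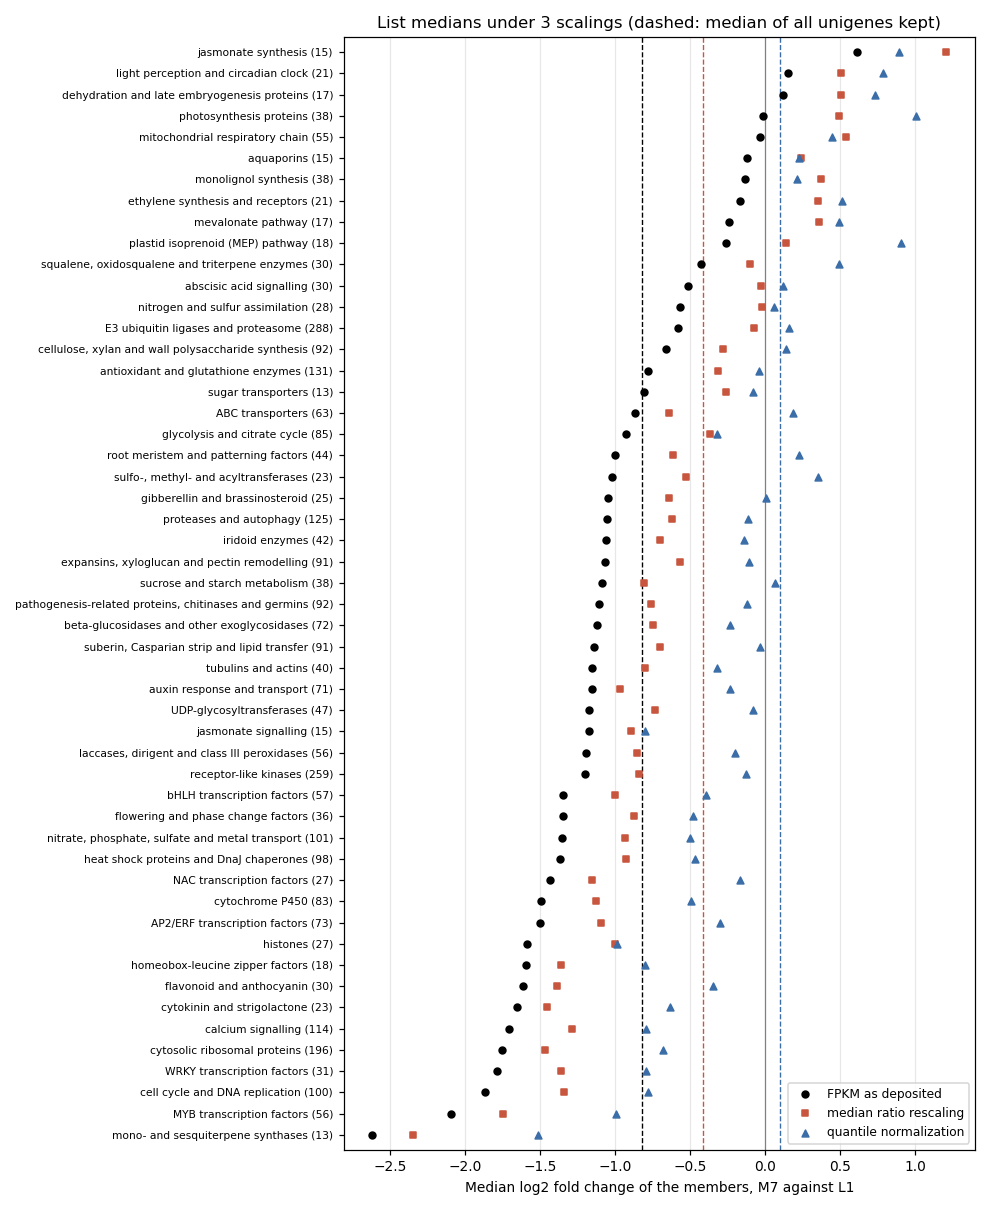
Median log2 fold change of the members of each list in M7 against L1, for FPKM as deposited (black circles), after median ratio rescaling (red squares) and after quantile normalization (blue triangles), with dashed lines at the medians of all unigenes kept (-0.82, -0.42 and 0.10). The medians of described unigenes, the background of the lists, were -0.96, -0.54 and -0.05 and are not drawn. Mono- and sesquiterpene synthases and MYB factors stay at the low end and jasmonate synthesis at the high end of these lists on the deposited scale.

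Outside the lists, part of the unigenes taken by the naming rule are given here. A dymeclin-like unigene (TRINITY_DN15361_c0_g1), of a protein family linked to the Golgi, had 1346, 794 and 1224 FPKM in M7, against 2.95, 3.10 and 5.93 FPKM in L1 (log2 fold change 7.83 ± 0.36, limma adjusted p = 0.000136). A stearoyl-acyl carrier protein 9-desaturase (TRINITY_DN1995_c0_g1), which puts the first double bond into plastid fatty acids, had 200.2, 429.5 and 262 FPKM in M7, against 5.15, 5.91 and 7.98 FPKM in L1 (log2 fold change 5.29 ± 0.37, limma adjusted p = 0.000254). An F-box/kelch-repeat protein (TRINITY_DN28214_c0_g1), of a family whose Arabidopsis members remove phenylalanine ammonia-lyase, had 245, 421 and 256 FPKM in M7, against 7.25, 7.01 and 7.11 FPKM in L1 (log2 fold change 5.20 ± 0.32, limma adjusted p = 0.0002). The largest falls among these were those of a LysM domain protein and of Protein TAR1. The LysM domain protein (TRINITY_DN2722_c0_g4), of a type that binds chitin and related sugars, had 0.63, 0 and 0 FPKM in M7, against 1377, 1472 and 2269 FPKM in L1 (log2 fold change -10.47 ± 0.36, limma adjusted p = 4.68e-05). Protein TAR1 (TRINITY_DN14739_c0_g1), a name given in yeast to a product encoded opposite ribosomal RNA, was listed at 0 in all 3 M7 libraries, against 407, 485 and 1268 FPKM in L1. Among the other falls, NUDT17 (TRINITY_DN27220_c0_g1), a hydrolase of the Nudix family, was listed at 0 in all 3 M7 libraries, against 283, 297 and 281 FPKM in L1, and a clavaminate synthase-like protein (TRINITY_DN20900_c0_g1) at 0 in all 3 M7 libraries, against 392, 405 and 469.7 FPKM in L1. A WAT1-related protein (TRINITY_DN117127_c0_g1), of a family related to a vacuolar auxin carrier of Arabidopsis, had 0.94, 1.24 and 2.32 FPKM in M7, against 311, 279.5 and 259 FPKM in L1 (log2 fold change -6.86 ± 0.32, limma adjusted p = 0.000141). An asparaginase-type peptidase (TRINITY_DN13_c0_g1), of a family with enzymes that free ammonium from asparagine, had 7.61, 8.39 and 27.8 FPKM in M7, against 1289, 1277 and 2041 FPKM in L1 (log2 fold change -6.82 ± 0.51, limma adjusted p = 0.000254). All 9 were taken by the naming rule, which takes only unigenes without overlap between the stages.

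Unigenes seen at a single stage of the pair were mostly those of L1. Under 0.1 FPKM in all M7 libraries were 2772 of the unigenes kept, 2575 of them listed at 0, and 1523 of the 2772 had a description. The reverse, under 0.1 FPKM in all L1 libraries, held for 122, of which 117 were listed at 0 and 34 had a description. Means over 30 FPKM at the other stage were reached by 121 of the first and 5 of the second. A bZIP transcription factor (TRINITY_DN15972_c0_g1) was listed at 0 in all 3 M7 libraries, against 99.7, 103 and 130.3 FPKM in L1. Uclacyanin 1-like (TRINITY_DN1259_c0_g1), a copper protein of the wall, was listed at 0 in all 3 M7 libraries, against 112, 134 and 32.6 FPKM in L1. On the M7 side, monothiol glutaredoxin-S4 (TRINITY_DN13587_c0_g2), of a family tied to nitrate signals in Arabidopsis, had 74.5, 12.1 and 27.7 FPKM in M7, against 0 in all 3 L1 libraries. Glutamate decarboxylase 4-like (TRINITY_DN110489_c0_g1), which makes gamma-aminobutyrate, had 3.47, 20.97 and 12.03 FPKM in M7, against 0.07, 0 and 0 FPKM in L1. An L-type lectin receptor kinase VIII.1-like unigene (TRINITY_DN35015_c0_g1) had 12.5, 25.3 and 21.3 FPKM in M7, against 0 in all 3 L1 libraries. Uclacyanin, the decarboxylase and this kinase were chosen after their values were seen, and a value of 0 means listed at 0, since the depth behind it is unknown.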

How the data were processed

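Total RNA of 9 root libraries was sequenced, and the 3 M7 and 3 L1 libraries were analysed here. The authors checked reads with FastQC, assembled them with Trinity and quantified unigenes with RSEM. The deposited values are FPKM (the methods also name TPM), without counts of reads, and both depth and counting error are unknown. The authors' stage means equal the library means and were not used. The table has 65535 rows, and unigenes outside it were not analysed here. Values were taken as log2(FPKM + 1) with a pseudocount of 1 and fitted with limma 3.58.1 (trend in the variance) in R 4.3.3, M7 minus L1, with Benjamini-Hochberg adjustment over the 22666 unigenes at 1 FPKM or more in 3 libraries, including the match species dropped afterwards. The fit was tested on simulated data. The DEG thresholds follow the methods, with the FPKM maximum read as the highest stage mean. The naming rule took, per list, the 2 DEGs with the largest rise and the 2 with the largest fall whose libraries did not overlap, and 10 each way in no list, 169 unigenes in all. The text names part of them, and others are said to be chosen after their values were seen. The members and lists were chosen with earlier results of these data known. Alternatives were other pseudocounts, filters, scalings and variance models, a fit of all 9 libraries, a fit with replicate numbers as a block, and omission of each library in turn. P-values measure the spread between these libraries. No sequences were used here.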

Additional observations from a re-analysis of the deposited data

Results flagged for a closer look

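Among unigenes outside the comparison, 114 had 30 FPKM or more in all 3 libraries of L2, the seedlings with a second leaf, and did not pass the filter over the M7 and L1 libraries. They are a signal in libraries that the comparison does not use. Of these, 64 were listed at 0 in all 6 libraries of M7 and L1, and the highest value of any of them in those 6 was 16.5 FPKM. Their median L2 mean was 61.8 FPKM and the highest L2 mean was 1497 FPKM. A description was given for 42 of them.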

How the results depend on the processing

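The main counts were 2589 unigenes higher and 8060 lower in M7, with 461 rising and 1120 falling DEGs. Quantile normalization gave 4995 higher and 4038 lower, a pseudocount of 5 gave 1549 and 4451, and a filter of 5 FPKM, which tests fewer unigenes, gave 1628 and 4098. Median ratio rescaling gave 735 rising DEGs. With 1 library left out, the ranges were 1905 to 2870 higher, 6591 to 8583 lower, 344 to 483 rising DEGs and 911 to 1274 falling DEGs. Leaving out replicate 1 of M7 and replicate 3 of L1 together, an alternative chosen after seeing the data, gave 2573, 7695, 379 and 900. The other alternatives run kept the counts within 1.5 times.

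Replicate numbers did not pair libraries, as deviations of same-numbered libraries correlated at -0.07, 0.06 and -0.02. A fit with the replicate number as a block gave 2404 unigenes higher, 7978 lower, 471 rising and 1138 falling DEGs.

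Of 49 list medians below 0, 17 turned positive after quantile normalization and 7 after median ratio rescaling. Those that were further from 0 than the spread between libraries were gibberellin and brassinosteroid (0.0033), root meristem factors (0.22), cellulose and xylan (0.14), sucrose and starch (0.065), nitrogen and sulfur assimilation (0.056), sulfo-, methyl- and acyltransferases (0.35), E3 ligases (0.16) and ABC transporters (0.18), all with quantile normalization. The median of jasmonate synthesis was -0.25 without a filter, and that of sugar transporters was 0.49 with a filter of 5 FPKM. The causes were not tested. Over the 169 unigenes of the naming rule, 3001 of 3041 comparisons with alternatives kept direction and side of the adjusted p threshold, 40 no longer passed it, in 11 unigenes, and 0 reversed. Values of low unigenes are limited by unknown depth.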
